A study of Homo sapiens with 9 samples.

Results

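The immediate early and AP-1 genes described here are 32 genes: the Jun and Fos families, the related bZIP genes ATF3 and MAFF, the EGR, KLF, NR4A, ZFP36 and IER families, DUSP1, PHLDA1, GEM and ARC, and SRF, a transcription factor that acts upstream of many of them. They are a list of gene symbols, drawn up with earlier results of these data known, among the 60623 genes listed in the count table. All 32 were found and all 32 had enough counts to be tested.

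Messenger RNA was sequenced from 22Rv1 cells, an established line of human prostate carcinoma epithelium. Every group carried a short hairpin RNA against PDCD4 and then received 1 form of PDCD4 back. PDCD4 is a tumour suppressor known for restraining the RNA helicase EIF4A in translation and, in mouse epidermal cells, for holding down AP-1 activity. The study asked how phosphorylation of PDCD4 by the kinase PLK1 relates to resistance to enzalutamide, a blocker of the androgen receptor. S239D cells carried PDCD4 with aspartate in place of the serine that gives both variants their names, which mimics a phosphate, S239A cells carried alanine there, which cannot be phosphorylated, and WT cells carried wild-type PDCD4. Each group had 3 libraries, 9 in all. Cells without the hairpin, and cells with the hairpin but no PDCD4 put back, were not analysed here, so each difference is between groups of cells given different forms of PDCD4. Whether replicates are separate cultures, or share 1 transduced pool or clone, is not stated in the labels, so p-values measure the spread between these libraries, which may be technical. If each group is 1 pool or clone, differences between pools cannot be told apart from those between forms.

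Immediate early genes are transcribed within minutes of a growth factor, stress or calcium signal, without the need for new protein. MAP kinases switch on SRF with its ternary complex partners at serum response elements, and CREB and ATF factors at cyclic AMP response elements. Many of the products are transcription factors. Jun and Fos proteins pair through leucine zippers to form AP-1, in which JUN is a strong activator, JUNB is often weaker or opposes JUN, and JUND is typically the steady subunit. Many of the messenger RNAs carry AU-rich elements in their 3′ untranslated regions, which ZFP36 proteins bind to speed decay.

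The libraries held 5696841 to 9688554 counts, so that 3 counts corresponded to 0.307 to 0.527 CPM, counts scaled by library size, a floor for counting error only. The 32 genes together took 0.188 to 0.240% of counts. PDCD4 itself averaged 17.0 ± 0.18 normalised CPM in S239D cells, 22.4 ± 3.1 in S239A cells and 23.1 ± 2.4 in WT cells (SD, n = 3 each). In S239D cells PDCD4 stood below WT (log2 fold change -0.44, edgeR adjusted p = 0.0164) and below S239A (-0.40, 0.0245). Counts per gene do not separate the returned PDCD4 from the cells' own. What part the PDCD4 level has in the results was not tested. All 10 prostate epithelial markers were over 1 CPM, with sums of 3492 to 3787 normalised CPM in S239D, 4967 to 5561 in S239A and 4679 to 4777 in WT libraries. Of 7 fibroblast markers 4 were over 1 CPM (sums 44.7 to 55.0 in S239D, 70.2 to 73.6 in S239A and 63.4 to 75.2 in WT), against 0 of 5 endothelial and 1 of 6 leukocyte markers, with 1 marker of each of these lists at 0 counts in every library. Replicate 2 of S239D and replicate 2 of S239A stood apart from the rest on the second principal component (-27.3 and -35.8, against 2.81 to 17.5 in the other 7 libraries). Mitochondrial genes took 4.72, 6.01 and 4.90% of counts in S239D, 3.33, 5.38 and 2.99% in S239A and 2.99, 2.83 and 3.04% in WT libraries. What part these shifts in marker levels and mitochondrial share have in the results was not tested. In these bulk samples, fewer cells of a type cannot be told apart from less RNA per cell.

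Within S239D cells the 32 genes moved in both directions rather than together. Against WT, 13 were higher and 11 lower, 24 of 32 or 75.0%, where a gene is called at an edgeR quasi-likelihood p under 0.05 after Benjamini-Hochberg adjustment over all genes. The background was wide, since 41.4% of the 16213 genes tested were called in the same comparison, 19.7% as higher and 21.7% as lower. Of those calls 47.6% were higher, against 58.1% of the calls of limma on log2(TPM + 1). The largest rises were in the orphan nuclear receptor NR4A3 (log2 fold change 2.37), its relative NR4A2 (1.12) and the zinc-finger factors KLF6 (1.10) and KLF10 (1.06), and the largest falls in FOSL1 (-2.43), ARC (-1.57), IER3 (-1.26), JUNB (-1.22) and KLF5 (-1.10). These 9 were the genes whose estimated change exceeded 2-fold. Among them, edgeR's interval for the log2 fold change lay wholly beyond 2-fold only for NR4A3 (2.03 to 2.72) and ARC (-2.05 to -1.09). The FOSL1 estimate rested on 2, 0 and 3 counts in S239D libraries. The share of all tested genes with an estimate over 2-fold was not counted. The median log2 fold change over the 32 genes was 0.17, against 0.001 over all genes tested, and the median size without sign was 0.51, against 0.34. The 32 genes were also more abundant than most, with a median of 46.8 normalised CPM against 24.5 over all tested genes. Among genes with a mean of at least 10 CPM, 19 of 24 immediate early genes were called, beside 45.0% of all such genes.

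**Figure D1:**
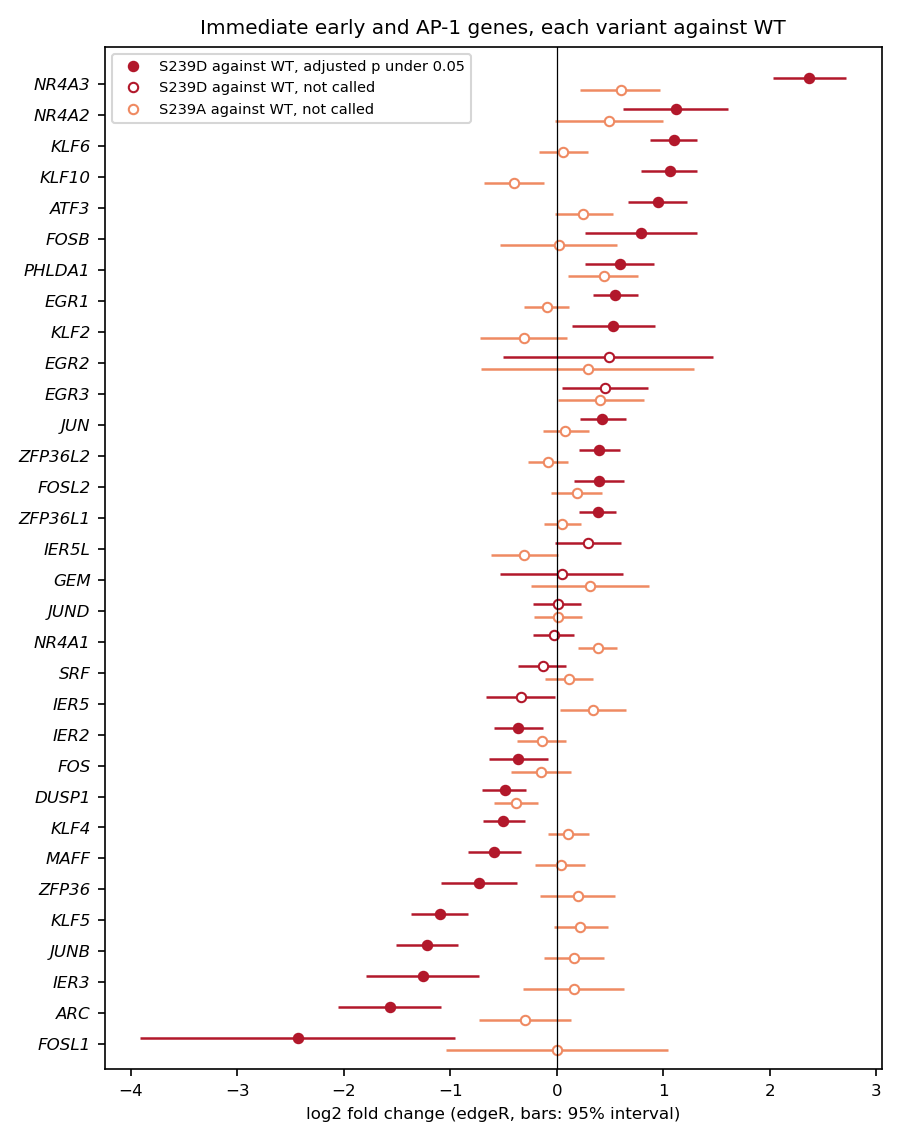
Log2 fold change against WT (x axis) of the 32 genes (y axis, ordered by the S239D value), with S239D in red and S239A in orange. Bars are 95% intervals from edgeR and filled points are genes called at an adjusted p under 0.05. S239D values run from -2.43 (FOSL1) to 2.37 (NR4A3), and S239A values from -0.40 (KLF10) to 0.60 (NR4A3) with no filled point.

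S239A cells differed far less from WT. None of the 32 genes was called, beside 1 of 16213 genes (0.00617%) in that comparison by edgeR's quasi-likelihood test, or 0.00909% of genes with a mean of at least 10 CPM. At an unadjusted p under 0.05 there were 7 of the 32 genes, beside 9.76% of all genes, and DESeq2 called 1, NR4A1. Log2 fold changes ran from -0.40 to 0.60 with a median of 0.09. Between the variants, S239D cells were higher than S239A cells in 12 genes and lower in 10, or 68.8% of the 32, beside 43.6% of all genes (20.9% higher and 22.7% lower). Among genes with a mean of at least 10 CPM this was 17 of 24, beside 47.0%. The comparisons of S239D with WT and with S239A share the S239D libraries, and in both of them 11 genes were higher and 8 lower. The share of all tested genes called in both was not counted, so this overlap cannot be called particular to the 32 genes.

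For 24 of the 32 genes the RefSeq table of promoters (GRCh38.p14) held the sequence before the annotated start, and the 250 bases upstream were searched for 4 motifs. The cyclic AMP response element with any base after TGAC (TGACNTCA, searched on both strands) was found in 7 of the 24 (29.2%), against 8.29% of all 27305 genes and 6.87% of 35116 promoters. These were JUN, ATF3, KLF6 and ZFP36L1, which were higher in S239D than in WT cells, MAFF and DUSP1, which were lower, and JUND, which was not called. The AP-1 element itself (TGANTCA, both strands) matched in 0 of 24, against 8.06% of genes and 6.57% of promoters. The CArG box, the core of the serum response element, matched in EGR1, EGR2 and SRF (12.5%), against 1.44% of genes and 1.16% of promoters. TATAAA on the gene's own strand matched in JUNB, FOS, FOSB, ATF3, KLF5 and DUSP1 (25%), against 8.38% of genes and 6.80% of promoters. None of these motifs overlapped another in the sequences shown, and a match describes letters in the window only.

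The 150 bases before the start are shown for 6 genes, written 5′ to 3′ on the gene's strand with matches in capitals: 4 with a cyclic AMP response element that moved in opposite directions (JUN and ATF3 higher, MAFF and DUSP1 lower), JUNB, the fallen partner of JUN, whose window holds a TATA box and no such element, and EGR1 with its pair of CArG boxes. They lie at chr1:58784048-58784197 on the minus strand (JUN), chr19:12791336-12791485 plus (JUNB), chr1:212565257-212565406 plus (ATF3), chr22:38201844-38201993 plus (MAFF), chr5:172771196-172771345 minus (DUSP1) and chr5:138465329-138465478 plus (EGR1). ATF3 and MAFF have a pair of listed promoters each, and the one with the match is shown. JUN and ATF3 hold TGACATCA, and MAFF and DUSP1 hold TGACGTCA. ZFP36L1, which was higher and is not shown, also holds TGACGTCA.
JUN: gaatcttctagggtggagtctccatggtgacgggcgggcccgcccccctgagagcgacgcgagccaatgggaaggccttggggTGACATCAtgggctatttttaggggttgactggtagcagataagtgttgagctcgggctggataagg
JUNB: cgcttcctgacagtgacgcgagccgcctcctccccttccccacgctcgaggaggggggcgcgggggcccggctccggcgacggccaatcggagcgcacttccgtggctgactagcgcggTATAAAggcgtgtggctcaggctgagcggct
ATF3: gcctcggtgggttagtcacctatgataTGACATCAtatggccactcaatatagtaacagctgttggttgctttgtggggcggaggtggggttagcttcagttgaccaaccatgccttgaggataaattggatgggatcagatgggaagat
MAFF: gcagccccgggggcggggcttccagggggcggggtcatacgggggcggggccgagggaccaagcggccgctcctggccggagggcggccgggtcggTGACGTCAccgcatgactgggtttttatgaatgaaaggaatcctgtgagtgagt
DUSP1: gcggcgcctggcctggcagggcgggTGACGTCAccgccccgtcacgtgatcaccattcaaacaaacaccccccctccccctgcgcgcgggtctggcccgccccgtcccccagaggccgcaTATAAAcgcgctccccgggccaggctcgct
EGR1: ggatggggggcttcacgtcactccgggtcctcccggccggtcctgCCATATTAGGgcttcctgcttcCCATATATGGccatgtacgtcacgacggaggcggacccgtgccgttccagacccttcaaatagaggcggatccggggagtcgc

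The Jun family kept its total but changed its makeup in S239D cells: JUN rose, JUNB fell and JUND, the most abundant of the 32 genes by TPM, was not called. JUN (chromosome 1, 58780791 to 58784047) had 349, 277 and 330 normalised CPM in S239D libraries, 260, 217 and 270 in S239A libraries and 240, 229 and 238 in WT libraries. All S239D values lay above all others, the lowest in each variant being replicate 2. JUN's log2 fold change was 0.43 against WT (SE 0.10, edgeR adjusted p = 0.00338) and 0.35 against S239A (0.0108). JUNB (chromosome 19, 12791486 to 12793315) had 81.7, 58.0 and 67.8 normalised CPM in S239D, 187, 148 and 203 in S239A and 165, 143 and 174 in WT libraries. Every S239D library was far below the 6 others, which overlapped one another. For JUNB the log2 fold change was -1.22 against WT (SE 0.14, edgeR adjusted p = 1.07e-05) and -1.38 against S239A (2.77e-06). JUND had 251, 181 and 217 normalised CPM in S239D, 220, 213 and 217 in S239A and 199, 226 and 221 in WT libraries, all overlapping, with an interval of -0.22 to 0.23 for the log2 fold change of S239D against WT. In S239A against WT, JUN and JUNB differed by 0.08 and 0.16 (edgeR adjusted p = 0.849 and 0.735).

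The ratio of JUN to JUNB counts within a library, which does not depend on scaling between libraries, was 4.27, 4.77 and 4.86 in S239D, 1.39, 1.46 and 1.33 in S239A and 1.45, 1.61 and 1.36 in WT libraries. It was 3.15-fold higher in S239D than in WT and 3.32-fold higher than in S239A, and 0.947-fold in S239A relative to WT. An exact two-sided permutation test gave p = 0.10 for both S239D comparisons, the smallest that 3 against 3 libraries allow, and 0.50 for S239A against WT. Adjusted over the 3 comparisons these were 0.15 and 0.50. Since JUN lay above and JUNB below all other libraries in S239D, the ratio had to separate there. The ratio and its test therefore describe the calls of JUN and JUNB and add no support to them. In TPM, a measure of abundance scaled by length within each library, the family summed to 636 ± 54 in S239D, 643 ± 28 in S239A and 628 ± 70 in WT cells. JUNB made up 9.83 ± 1.9% of that sum in S239D, 23.7 ± 4.3% in S239A and 21.7 ± 1.4% in WT cells, JUN 23.5 ± 3.6% in S239D, 17.0 ± 2.4% in S239A and 16.6 ± 1.5% in WT cells, and JUND 66.7 ± 5.3% in S239D, 59.3 ± 6.8% in S239A and 61.7 ± 2.7% in WT cells. The JUND shares are less certain, since the number of JUND counts per TPM, relative to the WT mean, ran from 0.641 in S239D replicate 2 to 1.19 across libraries, against 0.908 to 1.03 for JUN. JUNB shares 259 exonic bases with HOOK2 on the opposite strand, and whether counting used strand was not given. HOOK2 averaged 61.0 ± 7.8 normalised CPM in S239D, 38.6 ± 7.7 in S239A and 39.1 ± 2.4 in WT cells, the opposite direction to JUNB.

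**Figure D2:**
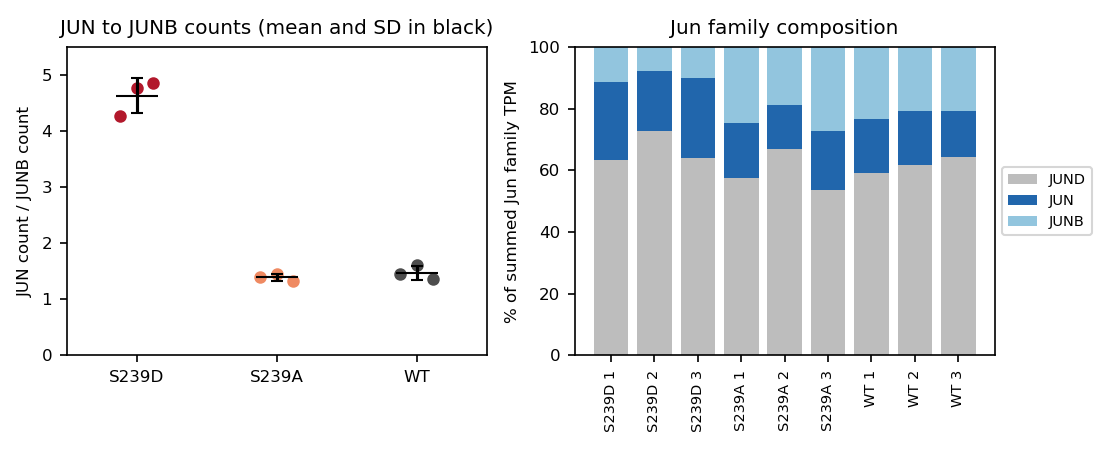
Left, ratio of JUN to JUNB counts (y axis) in each library by group (x axis), with mean and SD in black. S239D libraries lie between 4.27 and 4.86 and the 6 others between 1.33 and 1.61. Right, percent of the summed Jun family TPM (y axis) held by JUND, JUN and JUNB in each library (x axis), where JUNB averages 9.83% in S239D, 23.7% in S239A and 21.7% in WT.

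All 4 Fos genes were called in S239D against WT, a pair in each direction, though 3 of the 4 calls depended on single libraries. FOS, the classical partner of JUN, had 28.4, 22.9 and 31.1 normalised CPM in S239D, 31.4, 31.1 and 33.3 in S239A and 35.0, 40.7 and 31.1 in WT libraries. The S239D and WT libraries met at 31.1. Its log2 fold change against WT was -0.36 (SE 0.13, edgeR adjusted p = 0.0396). The adjusted p was 0.0867 without WT replicate 1, 0.170 without WT replicate 2, 0.0525 without S239A replicate 1, 0.0598 without S239D replicate 1 and 0.123 without S239D replicate 2, all by edgeR. FOSB had 10.4, 7.40 and 10.9 normalised CPM in S239D, 6.17, 4.67 and 5.94 in S239A and 4.01, 7.90 and 5.21 in WT libraries. S239D lay above S239A in every library but overlapped WT, because of WT replicate 2. FOSB's log2 fold change was 0.79 against WT (edgeR adjusted p = 0.0180) and 0.78 against S239A (0.0173). Against WT the edgeR adjusted p was 0.102 without WT replicate 1, 0.0650 without WT replicate 3, 0.0530 without S239D replicate 1 and 0.0775 without S239D replicate 3. Against S239A it was 0.0521 without S239D replicate 1 and 0.0751 without S239D replicate 3.

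FOSL2, or Fra-2, had 54.4, 47.4 and 59.8 normalised CPM in S239D, 46.4, 48.7 and 45.4 in S239A and 37.0, 44.8 and 41.7 in WT libraries. S239D was above WT throughout (log2 fold change 0.40, edgeR adjusted p = 0.0109), and overlapped S239A (0.20, adjusted p = 0.147). The edgeR adjusted p against WT was 0.0672 without WT replicate 1 and also 0.0672 without S239D replicate 3. Against S239A, FOSL2 was called only when S239D replicate 2 was left out, alone (log2 fold change 0.29, edgeR adjusted p = 0.0341) or with S239A replicate 2 (0.32, 0.00700). FOSL1, or Fra-1, was near the limit of detection, with 2, 0 and 3 counts in S239D, 5, 12 and 12 in S239A and 8, 8 and 10 in WT libraries. The S239D libraries were at or under the floor of 3 counts per library, and the other 6 were above it. The estimated log2 fold change was -2.43 against WT (95% interval -3.91 to -0.96, edgeR adjusted p = 0.0112) and -2.44 against S239A (-3.89 to -0.99, 0.00963). By limma on log2(TPM + 1) these were -0.84 (adjusted p = 0.0501) and -0.80 (0.0563), a scale that understates changes of low genes. Without S239D replicate 3 FOSL1 was at -3.03 against both groups, and without replicate 2 of both variants it was at -1.69 against S239A and not called (edgeR adjusted p = 0.0718).

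Summed Fos family TPM was 46.5 ± 7.1 in S239D, 43.2 ± 1.5 in S239A and 50.0 ± 10 in WT cells. FOS held 62.1 ± 2.7% of it in S239D, 67.8 ± 0.78% in S239A and 72.9 ± 0.50% in WT cells, and FOSL2 held 25.1 ± 1.6% in S239D, 21.9 ± 1.5% in S239A and 16.9 ± 1.9% in WT cells. Counts per TPM, relative to the WT mean, ran across libraries from 0.896 to 1.17 for FOS and from 0.827 to 1.56 for FOSB. The Fos shares are less certain for that reason.

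Among the related bZIP genes, ATF3, a stress-induced factor that pairs with Jun proteins, rose and MAFF, a small Maf protein without an activation domain, fell. ATF3 had 97.9, 80.7 and 101 normalised CPM in S239D, 63.1, 49.8 and 60.0 in S239A and 43.8, 44.4 and 56.6 in WT libraries. S239D did not overlap either other group, while S239A and WT overlapped. ATF3 rose by 0.95 in log2 against WT (SE 0.13, edgeR adjusted p = 5.70e-05) and by 0.69 against S239A (0.000545). MAFF had 32.7, 26.4 and 29.3 normalised CPM in S239D, 43.2, 44.1 and 48.6 in S239A and 47.2, 39.5 and 45.4 in WT libraries. S239D was lower than every other library, with a log2 fold change of -0.59 against WT (SE 0.11, edgeR adjusted p = 0.000991) and -0.62 against S239A (0.000538). Both genes hold the same 8-letter element shown above, apart from 1 base.

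**Figure D3:**
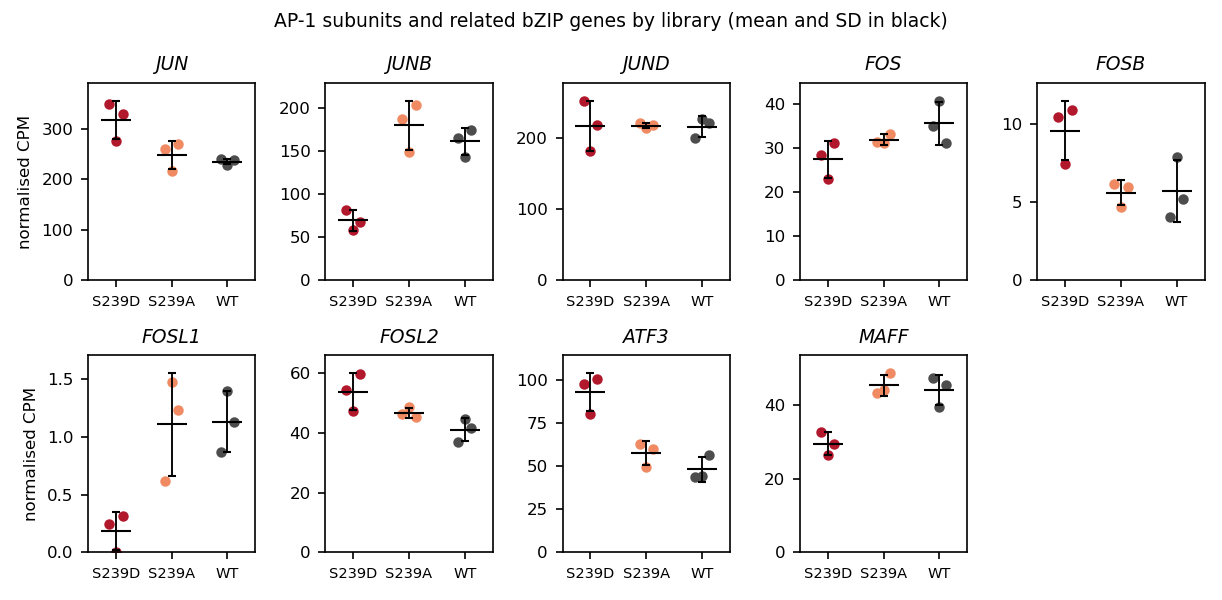
Normalised CPM (y axes, each starting at 0) of the 7 AP-1 subunits, ATF3 and MAFF in each library of S239D, S239A and WT cells (x axes), with mean and SD in black. JUN and ATF3 in S239D lie above all other libraries, JUNB, MAFF and FOSL1 lie below them, and JUND overlaps in all 3 groups.

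Of the EGR genes, zinc-finger factors that are direct targets of SRF, EGR1 alone was called. EGR1 had 117, 104 and 118 normalised CPM in S239D, 77.9, 64.9 and 75.1 in S239A and 84.2, 75.3 and 73.0 in WT libraries, so that every S239D library was higher. The log2 fold change was 0.55 against WT (SE 0.098, edgeR adjusted p = 0.000543) and 0.64 against S239A (0.000134). EGR2 and EGR3 were far lower. EGR3 averaged 7.22 ± 1.1 normalised CPM in S239D, 7.06 ± 0.27 in S239A and 5.26 ± 0.32 in WT cells, and EGR2 had 4 to 17 counts per library. Their log2 fold changes of S239D against WT were 0.45 (edgeR adjusted p = 0.0664) and 0.49 (0.422), with S239D libraries above WT libraries in both. SRF averaged 76.9 ± 12 normalised CPM in S239D, 91.7 ± 4.0 in S239A and 84.3 ± 1.3 in WT cells. It was not called against WT (log2 fold change -0.13, edgeR adjusted p = 0.329) or S239A (-0.25, 0.0634). Without S239D replicate 1 SRF was called lower against WT (-0.26, edgeR adjusted p = 0.0496) and against S239A (-0.38, 0.00735), and without S239A replicate 2 against S239A (-0.29, 0.0476). With the replicate number as a block SRF was also called against S239A (-0.26, edgeR adjusted p = 0.0318).

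The 5 KLF genes were all called in S239D against both other groups, 3 as higher and 2 as lower. KLF6, a growth-inhibiting factor studied in prostate cancer, had 46.7, 47.6 and 43.9 normalised CPM in S239D, 21.6, 21.8 and 23.8 in S239A and 22.6, 20.5 and 21.0 in WT libraries. The groups were tight and S239D stood at 2.15-fold the WT level (log2 fold change 1.10, SE 0.10, edgeR adjusted p = 2.39e-06). KLF10, an early TGF-beta response gene, had 114, 160 and 121 normalised CPM in S239D, 44.3, 53.7 and 46.2 in S239A and 67.1, 63.7 and 59.3 in WT libraries. The 3 groups did not overlap, with S239D highest and S239A lowest. The log2 fold change was 1.06 against WT (edgeR adjusted p = 1.81e-05) and 1.45 against S239A (9.38e-07), and S239A differed from WT by -0.40 without being called (0.323). KLF2, best known in endothelium, had 11.6, 15.0 and 14.3 normalised CPM in S239D, 9.38, 5.65 and 7.89 in S239A and 9.75, 9.31 and 9.29 in WT libraries. S239D exceeded all others, with a log2 fold change of 0.53 against WT (edgeR adjusted p = 0.0305) and 0.84 against S239A (0.00220). Against WT the edgeR adjusted p for KLF2 was 0.0698, 0.0754 and 0.0852 without WT replicate 1, 2 or 3, and 0.0809 and 0.0898 without S239D replicate 2 or 3.

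KLF5, a factor of proliferating epithelium, and KLF4, a differentiation and pluripotency factor, went the other way. KLF5 had 22.2, 28.5 and 23.4 normalised CPM in S239D, 62.8, 69.0 and 53.3 in S239A and 55.8, 50.7 and 51.7 in WT libraries. KLF4 had 61.1, 54.6 and 59.5 normalised CPM in S239D, 91.1, 81.4 and 94.3 in S239A and 82.5, 80.1 and 85.0 in WT libraries. For both genes S239D lay below all others, while S239A overlapped WT. KLF5 changed by -1.10 in log2 against WT (SE 0.13, edgeR adjusted p = 1.27e-05) and -1.32 against S239A (1.86e-06). KLF4 changed by -0.50 against WT (SE 0.091, edgeR adjusted p = 0.000613) and -0.61 against S239A (0.000109).

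The NR4A genes encode orphan nuclear receptors whose activity is set largely by how much is made. NR4A3 had 25.4, 31.6 and 29.4 normalised CPM in S239D, 7.16, 8.85 and 9.12 in S239A and 5.64, 6.32 and 4.87 in WT libraries. The groups did not overlap, with S239A between S239D and WT. NR4A3 was 5.18-fold higher in S239D than in WT cells (log2 fold change 2.37, SE 0.16, edgeR adjusted p = 1.27e-07) and 3.42-fold higher than in S239A cells (1.78, 6.68e-07). The S239A difference from WT, 0.60, was not called (edgeR adjusted p = 0.293). NR4A2 had 8.94, 10.6 and 10.7 normalised CPM in S239D, 7.41, 5.41 and 6.76 in S239A and 4.12, 3.16 and 6.35 in WT libraries. S239D was higher, by 1.12 in log2 against WT (SE 0.23, edgeR adjusted p = 0.00156) and by 0.63 against S239A (0.0316). Against S239A the edgeR adjusted p of NR4A2 was 0.0860 and 0.0594 without S239A replicate 2 or 3, and 0.0679 and 0.0956 without S239D replicate 2 or 3.

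NR4A1, the most abundant of the 3, showed another pattern. It had 117, 102 and 107 normalised CPM in S239D, 153, 133 and 148 in S239A and 105, 112 and 115 in WT libraries. S239A lay above both other groups, which overlapped. S239D was lower than S239A (log2 fold change -0.41, SE 0.087, edgeR adjusted p = 0.00162) and within -0.22 to 0.16 of WT (95% interval). S239A differed from WT by 0.39, not called with edgeR (adjusted p = 0.201), and called by DESeq2 (0.0225). It was also called by edgeR without the filter on low counts (0.0432), with GC and length trends removed (0.0294), and without replicate 2 of both variants (0.44, 0.000215). NR4A1 shares 754 exonic bases with the opposite-strand gene AC025259.3. That gene averaged 6.93 ± 0.56 normalised CPM in S239D, 9.29 ± 2.2 in S239A and 7.58 ± 1.6 in WT cells, its mean also highest in S239A.

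The ZFP36 family of RNA-binding decay factors was split. ZFP36, or tristetraprolin, had 37.8, 20.6 and 29.9 normalised CPM in S239D, 58.1, 47.4 and 62.2 in S239A and 47.1, 50.9 and 48.8 in WT libraries. S239D was lower than every other library, with replicate 2 the lowest, and its log2 fold change was -0.73 against WT (SE 0.17, edgeR adjusted p = 0.00346) and -0.93 against S239A (0.000536). ZFP36L1 had 108, 115 and 106 normalised CPM in S239D, 84.7, 86.9 and 88.9 in S239A and 82.7, 80.8 and 87.7 in WT libraries. ZFP36L2 had 96.6, 107 and 99.6 normalised CPM in S239D, 75.2, 69.2 and 73.3 in S239A and 71.7, 75.0 and 82.7 in WT libraries. Both were higher in every S239D library, by 0.39 (edgeR adjusted p = 0.00169) and 0.40 (0.00243) on the log2 scale against WT, and by 0.33 (0.00400) and 0.48 (0.000616) against S239A.

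Among the IER genes, IER3, a survival gene, fell most. IER3 had 4.29, 3.45 and 4.72 normalised CPM in S239D, 12.6, 7.62 and 13.2 in S239A and 10.9, 7.37 and 11.3 in WT libraries. Each S239D library was below all others, and the log2 fold change was -1.26 against WT (SE 0.25, edgeR adjusted p = 0.00110) and -1.42 against S239A (0.000354). IER2 had 219, 175 and 218 normalised CPM in S239D, 250, 202 and 263 in S239A and 268, 260 and 259 in WT libraries. Every S239D library lay below the WT libraries, with a log2 fold change of -0.36 (edgeR adjusted p = 0.0151, and 0.0546 without WT replicate 1), and overlapped S239A. Against S239A it was called only where S239A replicate 2 was left out (-0.33, edgeR adjusted p = 0.00975) or under other alternatives given at the end. With the replicate number as a block IER2 was also called against S239A (-0.22, edgeR adjusted p = 0.0424).

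IER5 had 66.8, 41.2 and 57.9 normalised CPM in S239D, 94.1, 74.6 and 96.9 in S239A and 66.4, 75.0 and 69.0 in WT libraries. IER5L had 215, 127 and 186 normalised CPM in S239D, 120, 106 and 123 in S239A and 141, 133 and 158 in WT libraries. The S239D libraries spread widely in both genes, with replicate 2 lowest, and overlapped WT but not S239A. Against S239A, IER5 was lower (log2 fold change -0.68, edgeR adjusted p = 0.00204) and IER5L higher (0.60, 0.00457). Against WT, IER5 was at -0.34 (edgeR adjusted p = 0.0827) and IER5L at 0.29 (0.126). IER5 was called against WT without S239D replicate 1 (-0.49, edgeR adjusted p = 0.0194), and IER5L without S239D replicate 2 (0.48, 0.00149). IER2, IER3 and IER5L share 946, 359 and 367 or more exonic bases with antisense genes, and among these AC011446.2 beside IER2 averaged 40.7 ± 10 normalised CPM in S239D, 51.1 ± 5.2 in S239A and 53.8 ± 5.0 in WT cells. AL158151.1 beside IER5L averaged 21.6 ± 0.43 in S239D, 12.3 ± 1.4 in S239A and 16.4 ± 2.0 in WT cells. By group mean, AC011446.2 ranked the groups as IER2 did, and AL158151.1 ranked them as IER5L did. What part opposite-strand reads have in these counts was not tested.

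DUSP1, a phosphatase that switches off MAP kinases, had 72.4, 70.3 and 61.7 normalised CPM in S239D, 77.2, 66.1 and 76.8 in S239A and 92.7, 98.5 and 96.3 in WT libraries. Both variants lay below WT and overlapped each other. The log2 fold change was -0.49 for S239D (SE 0.095, edgeR adjusted p = 0.000973), and -0.38 for S239A without a call (0.243). S239D was at -0.11 against S239A (edgeR adjusted p = 0.383), and at -0.20 with a call (0.0366) without replicate 2 of both variants. ARC, a regulator of synapses that binds the cytoskeleton, had 3.31, 2.59 and 3.46 normalised CPM in S239D, 5.68, 8.73 and 8.20 in S239A and 10.4, 9.13 and 8.39 in WT libraries. S239D was lower throughout, at -1.57 against WT (SE 0.22, edgeR adjusted p = 8.50e-05) and -1.27 against S239A (0.000457). PHLDA1, a gene of growth and death control, had 17.6, 18.7 and 16.3 normalised CPM in S239D, 14.8, 14.4 and 18.0 in S239A and 10.1, 13.3 and 11.9 in WT libraries. Both variants lay above WT, S239D by 0.59 (edgeR adjusted p = 0.00619) and S239A by 0.44 without a call (0.358). GEM, a small GTPase, had 15 to 42 counts per library and was not called in any comparison.

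**Figure D4:**
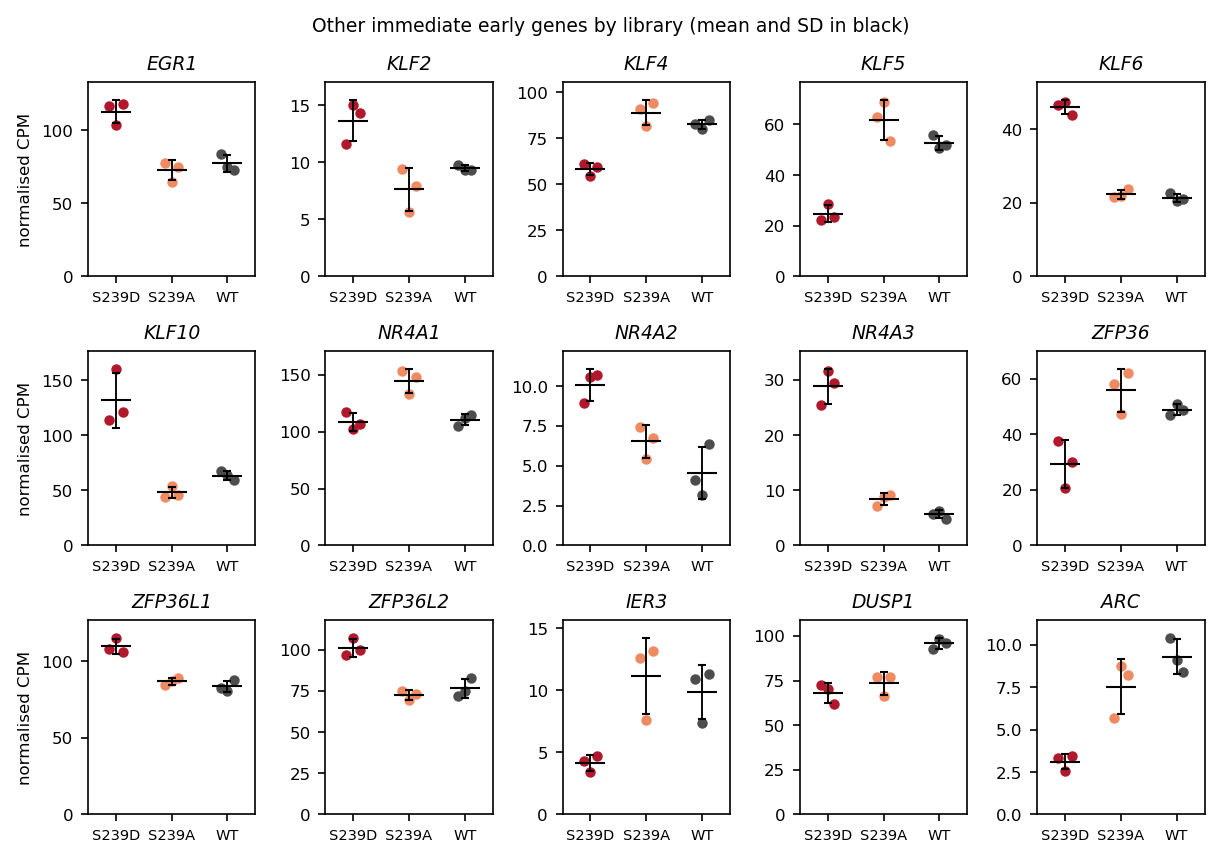
Normalised CPM (y axes, each starting at 0) of 15 other immediate early genes in each library of S239D, S239A and WT cells (x axes), with mean and SD in black. NR4A3, KLF6 and KLF10 in S239D lie above all other libraries, KLF5, IER3 and ARC lie below them, and NR4A1 is highest in S239A.

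Over the 32 genes, groups did not overlap in 24 for S239D against WT (14 above, 10 below), beside 53.9% of all tested genes, and in 24 for S239D against S239A (12 above, 12 below), beside 49.8%. For S239A against WT this held for 6 genes above and 3 below, beside 19.5%. Called in S239D against WT and not against S239A were FOSL2 and PHLDA1 (higher) and FOS, IER2 and DUSP1 (lower). Called against S239A and not against WT were IER5L (higher) and NR4A1 and IER5 (lower). JUND, EGR2, EGR3, GEM and SRF were called in neither. Replicate 2 of each variant, which stood apart on the second component, bore on the S239A comparison. With both left out, 9 of the 32 genes were called between S239A and WT, JUN, JUNB, ATF3, NR4A1, ZFP36 and IER5 as higher and KLF10, IER5L and DUSP1 as lower, beside 875 of all genes tested.

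In length-scaled abundance, JUND led the 32 genes in WT cells at 389 ± 58 TPM, followed by IER2 (210 ± 7.5), JUNB (136 ± 14) and JUN (103 ± 2.7), with no overlap between neighbours in that order. In S239D cells JUND (425 ± 70 TPM) and IER2 (149 ± 16) kept the first ranks, JUN stood at 148 ± 13, level with IER2, ATF3 had rank 4 at 107 ± 11 TPM, and JUNB stood at rank 9 with 62.0 ± 9.2 TPM. In S239A cells the first 4 ranks were those of WT. Ranks in the variants follow the means and are not all separated. In S239D libraries ATF3 overlapped IER5L and JUNB overlapped KLF10, and in S239A libraries IER2 overlapped JUNB. NR4A3 held rank 23 in S239D with 7.80 ± 0.96 TPM and rank 30 in both S239A (2.07 ± 0.20) and WT cells (1.57 ± 0.39).

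By structure, the 32 genes had few exons, though not short transcripts (median 3032 bases, against 3125 over tested protein-coding genes). Their annotated transcripts with the longest coding sequence had a median of 3 exons, against 9 over 13749 tested protein-coding genes, and 6 (JUN, JUNB, JUND, IER2, IER5 and IER5L) had a single exon (18.8%, against 2.63%). The pentamer ATTTA stood in the 3′ untranslated region of 30 (93.8%, against 67.3%) and the AU-rich nonamer TTATTTATT, which contains it, in 11 (34.4%, against 8.09%): FOS, FOSL2, MAFF, KLF5, ZFP36, ZFP36L1, ZFP36L2, IER5, DUSP1, PHLDA1 and SRF. The 3′ untranslated regions of the 32 genes were also longer, with a median of 1286 bases, against 1016. Per kilobase of that region ATTTA occurred 2.56 times, against 2.26. The nonamer was in 4 of the 13 genes higher in S239D than in WT cells and in 5 of the 11 lower.

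Genes around these 32 were counted from lists of the same pathway. For S239D against WT, 41.4% of all tested genes were called, 19.7% as higher and 21.7% as lower. Of 14 other AP-1 partners (the remaining ATF, BATF, Maf and related genes), 12 were tested, 3 higher and 1 lower in S239D than in WT cells. ATF7, which binds cyclic AMP response elements, averaged 130 ± 12 normalised CPM in S239D, 106 ± 15 in S239A and 89.5 ± 5.4 in WT cells (log2 fold change 0.54, edgeR adjusted p = 0.00117). MAFA averaged 1.55 ± 1.1 in S239D, 7.53 ± 1.5 in S239A and 4.95 ± 0.67 in WT cells (-1.70, 0.00200), and the small Maf gene MAFG (0.30, 0.0342) and MAF (0.25, 0.0410) were slightly higher. Of 27 upstream kinases and SRF cofactors, all tested, 7 were higher and 8 lower. ELK4, a ternary complex partner of SRF, averaged 126 ± 23 normalised CPM in S239D, 75.6 ± 4.1 in S239A and 70.5 ± 4.4 in WT cells (0.84, edgeR adjusted p = 7.33e-05). BRAF, a kinase of the MAP kinase cascade, was higher (0.94, 0.000127), and RPS6KA5, which encodes the histone and CREB kinase MSK1, was lower (-1.06, 0.000618). Median log2 fold changes of the tested genes in these lists were -0.05 and 0.04, against 0.001 over all genes.

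Of 46 other immediate early genes, 44 were tested, and 12 were higher and 12 lower in S239D than in WT cells (median -0.16). Over all genes tested, 19.7% were higher and 21.7% lower. BHLHE40, a circadian and hypoxia-responsive repressor, averaged 35.6 ± 4.2 normalised CPM in S239D, 7.45 ± 1.4 in S239A and 9.48 ± 1.1 in WT cells (log2 fold change 1.89, edgeR adjusted p = 7.26e-07), and the antiproliferative gene BTG2 averaged 71.3 ± 8.4 in S239D, 29.3 ± 4.5 in S239A and 25.6 ± 2.9 in WT cells (1.47, 1.78e-06). KLF9 averaged 22.1 ± 2.0 normalised CPM in S239D, 90.8 ± 4.5 in S239A and 65.5 ± 3.8 in WT cells (-1.57, edgeR adjusted p = 1.07e-07), and CCN2, a matricellular target of YAP and TGF-beta, averaged 4.21 ± 0.94 in S239D, 13.2 ± 2.3 in S239A and 20.6 ± 2.3 in WT cells (-2.30, 8.93e-07).

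Of 26 textbook AP-1 targets, 14 were tested, and 2 were higher and 8 lower in S239D than in WT cells, with a median log2 fold change of -0.51. The shares over all genes tested were 19.7% higher and 21.7% lower. LOX, a collagen cross-linking enzyme, averaged 3.09 ± 0.48 normalised CPM in S239D, 8.71 ± 0.81 in S239A and 8.62 ± 0.61 in WT cells (log2 fold change -1.48, edgeR adjusted p = 4.98e-05). The hyaluronan receptor CD44 averaged 34.9 ± 1.8 normalised CPM in S239D, 72.9 ± 8.8 in S239A and 57.9 ± 2.6 in WT cells (-0.73, edgeR adjusted p = 9.94e-05). The gap junction gene GJA1 (-0.84, 0.000141) and TGFB1 (-0.55, 0.000230) were also lower. Prostate epithelial markers went mostly the same way, 6 of 10 lower and 2 higher, and KRT18 is in both lists. Of 18 SRF and MRTF cytoskeletal targets, 17 were tested, 4 higher and 5 lower (median -0.04). The actin gene ACTG1 averaged 2072 ± 95 normalised CPM in S239D and 3231 ± 51 in WT cells (-0.64, edgeR adjusted p = 7.78e-06) and the tropomyosin gene TPM4 was lower (-0.36, 0.00172), while the actin cross-linker FLNA (0.54, 0.000871) and the low-level ANKRD1 (2.06, 0.000954) were higher. In S239A against WT, none of the genes in these 5 lists was called by edgeR's quasi-likelihood test.

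**Figure D5:**
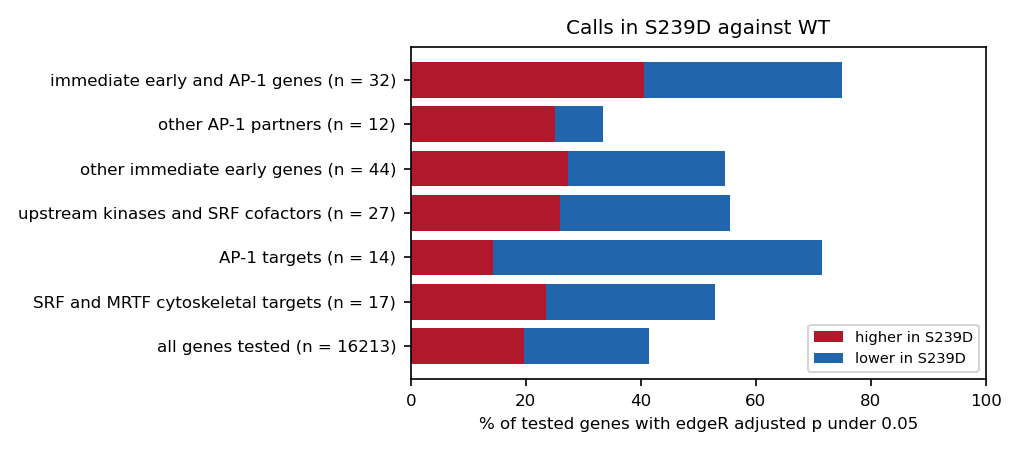
Percent of tested genes (x axis) called higher (red) or lower (blue) in S239D than in WT cells by edgeR, for the 32 genes, 5 lists of related genes and all 16213 genes tested (y axis). The 32 genes have 13 higher and 11 lower (75.0%), AP-1 targets have 2 higher and 8 lower of 14, and all genes have 41.4% called.

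Against S239A cells, where 43.6% of all tested genes were called (20.9% higher and 22.7% lower), S239D cells had 3 genes higher and 2 lower of 12 tested other AP-1 partners, 5 and 6 of 27 kinases and cofactors, and 4 and 4 of 17 cytoskeletal targets, shares near that of all genes. Of 44 other immediate early genes 12 were higher and 15 lower, and of 14 AP-1 targets 1 was higher and 7 were lower. KLF9 (log2 fold change -2.04, edgeR adjusted p = 7.76e-09) and BHLHE40 (2.25, 1.33e-07) again had the smallest adjusted p of those named.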

How the data were processed

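Poly-T beads captured messenger RNA from column-purified total RNA, and random hexamers primed the complementary DNA, per the labels' protocols. The authors deposited expected counts per gene, without normalization between libraries, and TPM, scaled within each library. The submitters' processing notes name Trimmomatic 0.39 and RSEM; the aligner, genome build, annotation and strandedness are not given in the sources used here. Gene coordinates are those of the deposited table, and all 32 genes overlapped the same gene of GENCODE 29 (GRCh38); exons and untranslated regions come from that release.

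Groups followed the genotype labels. Expected counts, of which 3.8% of values were not whole, were rounded and scaled by TMM, and the 16213 genes that passed filterByExpr were tested in 1 fit of 9 libraries by two-sided quasi-likelihood F tests with edgeR 4.0.16 (R 4.3.3), adjusted by Benjamini-Hochberg over all genes and called at 0.05. The fit was also run on simulated counts with far fewer changed genes than were called here, which checks the code and not these calls. Fold changes are edgeR's, and levels are mean normalised CPM with SD. All 32 genes are accounted for. Those called in any comparison and the AP-1 subunits are given per library, and from each list of related genes the 4 called genes with the smallest adjusted p are named, except 1 that is not reported here. The genes and lists were chosen with earlier results of these data known. Deviations from group means correlated at 0.100, 0.251 and 0.103 between same-numbered libraries of S239A and S239D. Between S239A replicate 3 and S239D replicate 1 the correlation was 0.15, and in other unlike-numbered pairs of the variants -0.21 to 0.02. For same-numbered libraries of WT and the variants it was -0.009 to 0.091. The labels name no shared batch. The 18 alternatives included RLE scaling, DESeq2 1.42.0, limma 3.58.1 on log2(TPM + 1) for genes of at least 1 TPM in 3 libraries, omission of the filter, 1 CPM in 6 libraries, fits of 2 groups alone, a replicate block, removal of GC and length trends, and libraries left out.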

Additional observations from a re-analysis of the deposited data

How the results depend on the processing

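No log2 fold change of the 32 genes changed sign with a call under any of 18 alternatives. Between S239A and WT, 1 gene was called in all, against 65 by DESeq2, 2 by limma on TPM, 142 without a filter, 6 with the replicate block, 21 with GC and length trends removed, 875 without replicate 2 of both variants, and 1 to 8 with 1 library left out, with 2 without WT replicate 3 and 8 without S239D replicate 2. Of the 32 genes, 0 were called, and 0 with any 1 library left out, against 1 (NR4A1) by DESeq2, 1 without a filter, 1 with GC and length trends removed, and 9 without replicate 2 of both variants. Between S239D and WT, limma called 4351 genes (2526 higher and 1825 lower, against 3195 and 3513 with edgeR) and leaving out 1 library gave 5320 to 7472, and 19 to 24 of the 32. The median log2 fold change of the 32 genes was 0.29 over the 31 left by a filter of 1 CPM in 6 libraries, and 0.13 to 0.28 with 1 library left out. Between S239D and S239A, limma called 4697 genes (2784 higher and 1913 lower, against 3390 and 3674 with edgeR), and leaving out 1 library gave 5822 to 7114 genes, 20 to 23 of the 32, and medians of -0.10 to 0.09. The cause was not tested.

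Not every library correlated best with its own number. With the replicate block, 26 of the 32 genes were called between S239D and WT, with IER5 and IER5L added, beside 44.9% of all genes (7275), and 24 between S239D and S239A, with IER2 and SRF added, beside 46.9% (7610). IER2 and SRF were also called there with GC and length trends removed and without replicate 2 of both variants. By limma on TPM, FOS (adjusted p = 0.137) and FOSB (0.369) were not called against WT, nor FOSB (0.206), NR4A1 (0.0737) and NR4A2 (0.0783) against S239A. Depth limits FOSL1, EGR2 and GEM, with at most 42 counts per library.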
